A study of Mus musculus with 6 samples.

Results

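The genes of entry into the endoplasmic reticulum (ER) and of early secretory transport were chosen by gene symbol: symbols of the Sec61, Sec62 and Sec63 translocon, the signal recognition particle, the translocon-associated proteins, signal peptidase, the protein disulfide isomerases, the ER chaperones, the unfolded protein response, the COPII and COPI coats and the Sec22 SNAREs. The rule found 58 of 21887 protein-coding genes on chromosomes 1 to 19, X and Y. The rule reads no measured value, but it was proposed with earlier results of these data known. Positions of YAP and of acetylated histone H3 lysine 27 (H3K27ac) at these genes were read in epithelial cells of the mouse gastric corpus, which were detached with EDTA and, without culture, fixed and then frozen. Tumor mice carried CluCreERT2, a tamoxifen-dependent Cre recombinase at Clu, together with R26rtTA, the doxycycline-dependent transactivator, and HA-Yap+, a tagged Yap that doxycycline induces. Normal mice were given as WT, a label that names none of these alleles. Per the labels, all mice were given tamoxifen at 2 mg on 5 successive days, followed by 14 days on doxycycline food up to the endpoint, so normal and tumor mice shared both agents. The sources used here do not give ages, sexes or the number of animals behind a library. The series holds 2 YAP libraries of tumor and 2 of normal epithelium, and 1 H3K27ac library of each. Recombination starts in cells that express Clu, and what share of the collected cells carried induced Yap is not given, so each library mixes cells. In such bulk material, fewer cells of a type and less signal per cell cannot be told apart.

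Secreted and membrane proteins carry a signal sequence that the signal recognition particle binds as it leaves the ribosome and delivers to the Sec61 channel in the ER membrane. Inside the ER, chaperones and disulfide isomerases fold the chain, signal peptidase removes the signal sequence, and COPII vesicles carry folded cargo to the Golgi while COPI vesicles return escaped proteins. The unfolded protein response adjusts the capacity of this route through the sensors Ern1, Eif2ak3 and Atf6, and it is used heavily by the enzyme-secreting chief cells and mucus-secreting cells of the stomach. YAP is a transcriptional coactivator restrained by the Hippo kinases that reaches DNA mainly through TEAD factors, and H3K27ac marks active promoters and enhancers.

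Each library was represented by the authors' list of peak summits, each 1 bp wide, with a score that is the authors' −log10 of a p or q value, with the choice between them unstated. The YAP lists held 38268 and 53904 summits in tumor 1 and tumor 2, against 1654 and 2141 in normal 1 and normal 2. The H3K27ac lists held 66896 summits in tumor and 22574 in normal. Depth is unknown, as a summit list does not hold it, so counts are also given at equal list length, and scores are read only as ranks within 1 list. The peak names of 2 YAP libraries go against their labels. The library labelled tumor 1 carries cre, the word of the normal H3K27ac library. The library labelled normal 2 carries Clu_Yap, the word of the tumor H3K27ac library. Whether the word cre stands for a Cre allele in normal mice is not given. Groups follow the labels, and results are given for each YAP library. Of 20 markers of gastric epithelium, 16 had an H3K27ac summit within 1 kb of a gene end in tumor and 16 in normal. Those without one were Cblif, Gkn1, Muc5ac and Tff2 in tumor, and Gata6, Muc6, Sox2 and Tff2 in normal, so some defining genes of the labelled tissue lacked the mark in either list.

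In tumor epithelium YAP was found at nearly every gene of the pathway, and at most of them it lay on the promoter. A YAP site of both tumor libraries (summits of tumor 1 and tumor 2 within 200 bp of each other, assigned to the protein-coding gene with the nearest end within 50 kb) was found for 49 of the 58 members. That is 84.5% (Wilson 95% interval 73.1 to 91.6), against 60.0% of all protein-coding genes. For 46 of 58, or 79.3%, a site lay within 1 kb of the start or end of the gene, against 41.4% of all genes. Any summit of tumor 1 was found for 54 members (93.1%, against 66.2% of all genes), and any summit of tumor 2 for 55 (94.8%, against 70.8%). Among genes that carry H3K27ac at an end in both tissues, the members' shares were close to the background. Of the 53 members with that mark, 46 had a YAP site of both tumor libraries (86.8%, against 89.7% of the 8989 such genes), and 45 had it at a gene end (84.9%, against 80.8%). Tumor 2 is the tumor library whose peak names fit its label. The 9 members without a site of both tumor libraries were Atf4, Canx, Copa, Cope, Pdia2, Sec31b, Sec61b, Spcs3 and Ssr4. The members share the same 2 libraries and are not replicates of a condition, so these shares are descriptions with no test.

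**Figure D1:**
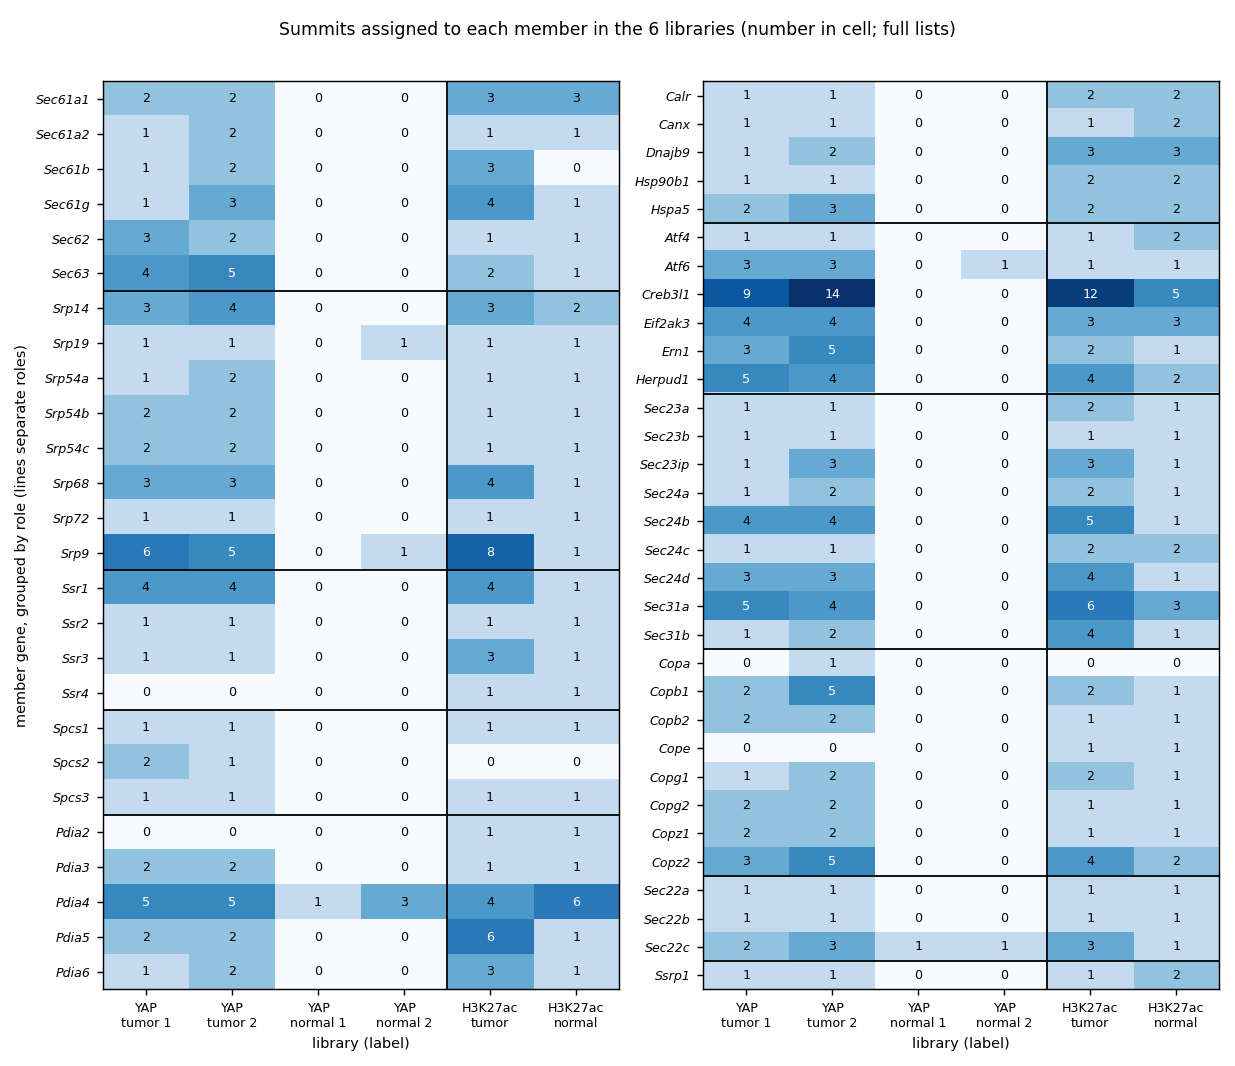
Number of summits assigned to each of the 58 members (rows, grouped by role) in the 6 libraries (columns), tumor to the left of normal for each antibody. The columns of YAP in tumor are filled for 54 and 55 members, those of YAP in normal for 2 and 5, and those of H3K27ac for 56 in tumor and 55 in normal.

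Transcript starts were available for 51 members, from the RefSeq promoter table of GRCm38.p6. At these starts YAP of both tumor libraries lay within 1 kb for 50 of 51 members, or 98.0% (Wilson 95% interval 89.7 to 99.7), against 54.7% of 17492 genes. The exception was Pdia2, a disulfide isomerase gene known mainly from the pancreas. Within 200 bp the count was 36 of 51, or 70.6%, against 38.1% of all genes. H3K27ac of both tissues lay within 1 kb of all 51 starts, against 50.5% of all genes, and both marks together at 50 of 51, against 48.1%. Among genes with H3K27ac of both tissues at the start, YAP of both tumor libraries was there for 50 of 51 members, 98.0%, against 95.3%, so the members were close to other genes with an acetylated start.

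At the start itself YAP lay nearer to the start than H3K27ac, as at other genes. For a member with more than 1 start, the one nearest to its tumor YAP summits was used. That choice favours small YAP offsets, so it is part of this result. The YAP summit nearest to a member's start had a median offset of -2.5 bp in tumor 1 and -17.0 bp in tumor 2 (negative is upstream), against -4.0 and 4.0 bp for all genes with a summit there. The H3K27ac summit lay downstream, at a median of 205 bp in tumor and 207 bp in normal, against 176 and 191 bp for all genes. H3K27ac of tumor lay downstream of YAP in 47 of 50 members measured with tumor 1 (94.0%, against 77.7% of all genes with both summits at the start), with a median gap of 240.5 bp, against 156 bp. Measured with tumor 2 it did so in 44 of 50 (88.0%, against 77.9%), with a median gap of 242.5 bp, against 145 bp. H3K27ac of normal lay downstream in 43 of 50 measured with tumor 1 (86.0%, against 75.4%) and in 42 of 50 measured with tumor 2 (84.0%, against 76.0%). Sec22c and Sec61b were on the other side in each of these 4 pairings. The median distance from the tumor H3K27ac summit to the normal one was 28.0 bp, with 43 of 51 members within 100 bp. The 5 members over 200 bp were Atf4, Sec24a, Sec24b, Sec61b and Sec62. The distance between the YAP summits of tumor 1 and tumor 2 had a median of 54.0 bp, and it passed 200 bp at Atf4, Canx, Copz2 and Sec31b.

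**Figure D2:**
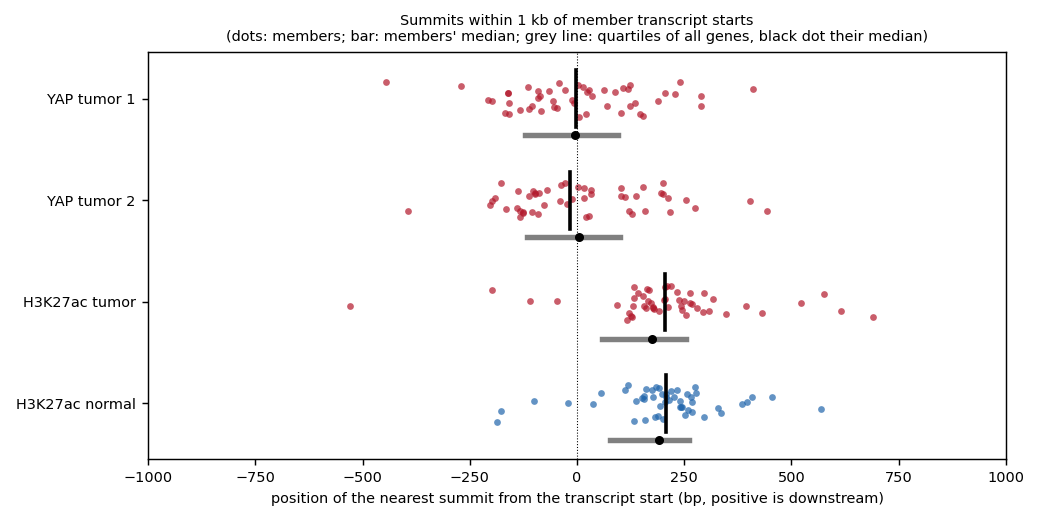
Offset in bp of the nearest summit from the transcript start (x axis, negative upstream) for the members and for all genes, by library. Member YAP summits of the tumor libraries centre near the start (medians -2.5 and -17.0 bp), and member H3K27ac summits centre downstream of it (medians 205 bp in tumor and 207 bp in normal).

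By the authors' scores, the summits at member starts were among the strong ones of their lists. The median YAP summit at a member start stood in the top 9.82% of the tumor 1 list and in the top 6.23% of the tumor 2 list, against 19.4% and 15.1% for all genes with a summit at the start and 16.8% and 12.3% for those with H3K27ac of both tissues there. The best 10% of the list held 26 of 50 members in tumor 1 (52.0%, against 27.8% of all such genes) and 38 of 50 in tumor 2 (76.0%, against 35.7%). Among genes with H3K27ac of both tissues at the start, the best 10% held 31.1% in tumor 1 and 41.8% in tumor 2. H3K27ac summits at member starts had a median in the top 3.16% in tumor and in the top 10.9% in normal, against 11.5% and 29.0% for all genes. The best 10% held 44 of 51 members in tumor (86.3%, against 44.2%) and 24 of 51 in normal (47.1%, against 17.9%). Genes with H3K27ac of both tissues at the start had medians of 8.48% in tumor and 28.1% in normal. Of these genes, 58.4% were in the best 10% in tumor and 18.4% in normal. The lists differ in length, so these ranks describe each library and not a change between tissues.

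**Figure D3:**
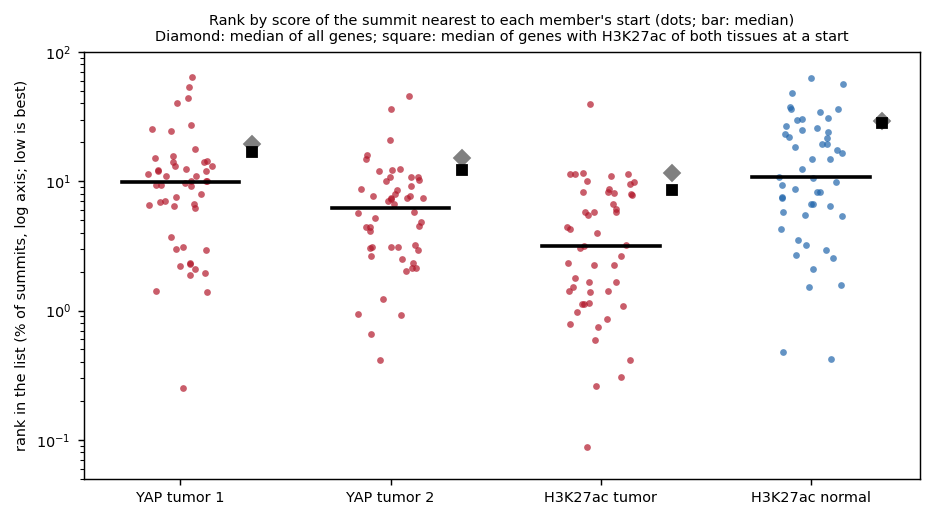
Rank of the summit nearest to the transcript start, as the top percent of its list (y axis, lower is stronger), for members and for all genes in each library. Members' medians were 9.82% and 6.23% for YAP in tumor 1 and tumor 2, against 19.4% and 15.1% for all genes.

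The translocon opens the route. Sec61b, the beta subunit of the channel (chr4:47474661-47483233), had the best-ranked YAP summit at any member start: rank 96 of tumor 1 (score 88.5) and rank 223 of tumor 2 (score 75.3), at 134 and 178 bp upstream of the start. It counts among the 9 members without a site of both tumor libraries, because its start lies 294 bp from Alg2, a mannosyltransferase gene of N-glycan assembly, and the midpoint of the paired summits is nearer to Alg2. H3K27ac at Sec61b lay upstream of the start, at -529 bp in tumor and at -186 bp in normal. The promoter is shown because it carries the strongest of the YAP summits at a start. It is printed 5′ to 3′ on the plus strand of GRCm38, from the RefSeq promoter table, at chr4:47474411-47474710. Capitals mark the match to the AP-1 motif TGAGTCA (read here as its reverse complement), which begins at base 37 of 300. The YAP summits were at base 117 in tumor 1 and base 73 in tumor 2, with the transcript start at base 251.
Sec61b: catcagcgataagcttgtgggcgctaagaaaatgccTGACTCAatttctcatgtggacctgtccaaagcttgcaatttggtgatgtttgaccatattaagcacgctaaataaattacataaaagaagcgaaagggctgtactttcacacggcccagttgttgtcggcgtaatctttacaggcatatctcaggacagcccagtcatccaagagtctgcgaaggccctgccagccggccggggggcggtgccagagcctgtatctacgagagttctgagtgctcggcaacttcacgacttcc

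The other channel genes also carried YAP at a gene end or start in tumor. Sec61a1, the pore-forming alpha subunit, had 2 YAP summits in tumor 1 and 2 in tumor 2, against 0 in normal 1 and 0 in normal 2. It had 2 sites of both tumor libraries. The better lay 71 bp outside a gene end, at rank 6019 of tumor 1 and rank 5709 of tumor 2, and the weaker 1306 bp from an end, at ranks 37626 and 47644. Sec61g, the gamma subunit, had its YAP summits 228 and 196 bp downstream of the start in tumor 1 and tumor 2. Sec61a2, the other alpha subunit gene, had a start summit at rank 2501 in tumor 1 and 1668 in tumor 2. Sec63, an ER membrane J-protein that works with the channel, had 4 YAP summits in tumor 1 and 5 in tumor 2, against 0 in both normal libraries. Its best site lay 20 bp from the gene end at ranks 878 and 1654, and the other 3 lay 6988 to 26747 bp away with ranks no better than 14676 in either library. Sec62, a further partner of the channel, had start summits at rank 898 in tumor 1 and 2431 in tumor 2. No channel gene was assigned a YAP summit in either normal library, beside 2.79% of all genes in normal 1 and 5.98% in normal 2.

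All 8 genes of the signal recognition particle had a YAP site of both tumor libraries at a gene end, against 41.4% of all genes and 80.8% of those with H3K27ac of both tissues at an end, a mark that all 8 carry. Srp9, which with Srp14 forms the domain that slows the ribosome, had 6 YAP summits in tumor 1 and 5 in tumor 2, against 0 in normal 1 and 1 in normal 2. Its start site stood at ranks 1130 and 2791, and the summit of normal 2 lay 185 bp from it. Srp14 had 3 and 4 YAP summits in tumor, against 0 and 0 in normal. Srp19, an assembly protein of the particle, had 1 summit in each tumor library (ranks 448 and 349), against 0 in normal 1 and 1 in normal 2. Srp68 and Srp72 form a pair on the particle's RNA. Srp68 had 3 YAP summits in each tumor library, and Srp72 had 1 in each, at ranks 746 and 4174. Srp54a, Srp54b and Srp54c encode copies of the GTPase that holds the signal sequence. They are near-identical neighbours, and each had a distal site inside the gene, at 12065, 12217 and 12283 bp from its nearer end. Reads that fit more than 1 copy could be split between them, so these 3 genes are uncertain.

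The translocon-associated protein (TRAP) complex, which assists the entry of some signal sequences, had a site at 3 of its 4 genes. All 4 carry H3K27ac of both tissues at an end. A YAP site of both tumor libraries was found at 60.0% of all genes and at 89.7% of those with that mark. Ssr1 had 4 YAP summits in tumor 1 and 4 in tumor 2, against 0 in both normal libraries, and 2 of its sites lay at a gene end. Ssr2 and Ssr3 had 1 summit in each tumor library, against 0 in each normal library. Ssr4 was assigned no YAP summit in any library, since its start lies 126 bp from Idh3g. YAP summits were nevertheless 270 and 198 bp upstream of the Ssr4 start in tumor 1 and tumor 2, at ranks 5754 and 11223. Of the signal peptidase subunits, Spcs1 had a strong start site at ranks 537 and 1158, about where H3K27ac lay (-46 bp in tumor and -100 bp in normal). Spcs2 had its only assigned site of both tumor libraries 6185 bp from the gene. At the Spcs2 start, YAP summits lay 111 and 133 bp upstream in tumor 1 and tumor 2, at ranks 2444 and 1422. These summits were assigned to Xrra1, the gene with the nearer end. Spcs3 had 1 summit in each tumor library but no site of both.

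The ER chaperones are the classical targets of the unfolded protein response. Hspa5 (BiP), the main ER Hsp70, had 2 YAP summits in tumor 1 and 3 in tumor 2, against 0 in normal 1 and 0 in normal 2, and 2 H3K27ac summits in tumor against 2 in normal. Its start site lay 19 bp outside the gene at ranks 3042 and 2394. Calr, the calcium-binding lectin chaperone, had 1 YAP summit in each tumor library at ranks 841 and 1597, against 0 in each normal library. Canx, its membrane-bound relative, had summits at 107 bp in tumor 1 and -97 bp in tumor 2, which are over 200 bp apart and so did not count as 1 site. Hsp90b1, the ER Hsp90, had start summits further upstream, at -445 and -394 bp, nearer to the neighbouring gene Ttc41. Dnajb9, an ER J-protein, had a start site at ranks 2379 and 1661. Each of these genes had a YAP summit within 1 kb of the start in both tumor libraries and in neither normal library. Among genes with H3K27ac of both tissues at the start, 95.3% had YAP of both tumor libraries there. Of all genes, 0.0572% had a summit of normal 1 at the start and 3.85% one of normal 2.

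The ER stress response element (ERSE) reads CCAAT, then 9 free bases, then CCACG, and was searched on both strands. A gene was counted once if any of its promoters held a match. The letters occurred in 5 of 51 members, 9.8%, against 0.166% of 17492 genes (29 genes) with promoters of the same length. Those 5 were Calr, Canx, Hsp90b1, Hspa5 and Pdia6, the last a disulfide isomerase. They are shown because the element is shared by 4 of the 5 chaperone genes, and they let the position of YAP be read against it. Each is 300 bases from the RefSeq promoter table of GRCm38.p6, 5′ to 3′ in the direction of transcription, with the start at base 251 and each ERSE match in capitals. Calr is chr8:84846882-84847181 on the minus strand, Canx chr11:50325624-50325923 minus, Hsp90b1 chr10:86705395-86705694 minus, Hspa5 chr2:34771840-34772139 plus and Pdia6 chr12:17266339-17266638 plus.
Calr: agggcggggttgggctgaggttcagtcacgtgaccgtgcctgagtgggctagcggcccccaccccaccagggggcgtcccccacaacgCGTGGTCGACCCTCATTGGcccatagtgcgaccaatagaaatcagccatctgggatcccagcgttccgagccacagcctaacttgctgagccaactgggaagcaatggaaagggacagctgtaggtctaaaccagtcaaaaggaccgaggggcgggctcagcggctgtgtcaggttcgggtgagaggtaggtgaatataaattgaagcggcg
Canx: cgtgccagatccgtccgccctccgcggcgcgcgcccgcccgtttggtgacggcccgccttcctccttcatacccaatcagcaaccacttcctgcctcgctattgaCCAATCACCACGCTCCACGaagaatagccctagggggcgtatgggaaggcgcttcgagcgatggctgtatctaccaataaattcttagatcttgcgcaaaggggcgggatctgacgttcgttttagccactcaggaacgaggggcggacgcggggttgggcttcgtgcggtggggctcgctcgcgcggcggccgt
Hsp90b1: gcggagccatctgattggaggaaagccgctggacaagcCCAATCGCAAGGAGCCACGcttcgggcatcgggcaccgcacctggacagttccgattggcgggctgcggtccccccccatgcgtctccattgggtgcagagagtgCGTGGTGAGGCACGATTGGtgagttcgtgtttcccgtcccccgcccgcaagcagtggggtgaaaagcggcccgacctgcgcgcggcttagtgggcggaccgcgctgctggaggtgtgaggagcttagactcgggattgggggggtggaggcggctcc
Hspa5: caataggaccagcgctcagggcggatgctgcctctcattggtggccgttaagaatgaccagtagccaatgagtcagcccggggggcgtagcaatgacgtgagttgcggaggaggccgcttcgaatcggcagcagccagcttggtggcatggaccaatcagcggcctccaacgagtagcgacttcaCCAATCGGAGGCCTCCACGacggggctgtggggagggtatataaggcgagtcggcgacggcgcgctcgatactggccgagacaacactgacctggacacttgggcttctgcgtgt
Pdia6: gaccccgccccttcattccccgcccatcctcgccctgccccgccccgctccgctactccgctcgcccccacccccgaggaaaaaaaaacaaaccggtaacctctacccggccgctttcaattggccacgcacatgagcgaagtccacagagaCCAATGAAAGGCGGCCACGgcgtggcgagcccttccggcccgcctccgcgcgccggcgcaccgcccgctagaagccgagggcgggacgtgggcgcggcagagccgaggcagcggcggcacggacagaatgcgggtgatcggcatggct
In Hspa5 the ERSE began at base 186, and the YAP summits were at base 197 in tumor 1, inside the match, and base 268 in tumor 2. In Calr the match began at base 89, and the YAP summits were at bases 205 and 126. In Canx the match began at base 106 and the tumor 2 summit was at base 154, while the tumor 1 summit was past the window. In Pdia6 the match began at base 153, and the YAP summits were at bases 255 and 140. Hsp90b1 holds 2 matches, at bases 39 and 144, and both of its YAP summits lay upstream of the window. A match is a description of the letters and not a measured site.

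The best-ranked YAP site of all members belonged to a disulfide isomerase gene and lay far from its promoter. Pdia4 (chr6:47796141-47813512) had 5 YAP summits in tumor 1 and 5 in tumor 2, against 1 in normal 1 and 3 in normal 2. Its best site, at chromosome 6 position 47772251, lay 23890 bp outside the gene and ranked 38 in both tumor lists. Further sites lay 18039 bp away at ranks 102 and 65, and 28232 bp away at ranks 121 and 142. H3K27ac lay 59 bp from the best site in tumor and 237 bp from it in normal. Each of these 3 sites had a YAP summit of normal 2 within 78 bp, and the best also had one of normal 1 within 3 bp. Pdia4 and Sec22c were the 2 members with a YAP site of both normal libraries (3.45% of members, against 0.95% of all genes). The Pdia4 start had a site at ranks 6012 and 3802. Pdia3, which works on glycoproteins with Calr and Canx, had 2 YAP summits in each tumor library, against 0 in each normal library, with a start site at ranks 2673 and 1153. Pdia5 and Pdia6 each had a start site. Pdia2 had no YAP summit in any library, and its H3K27ac start summit ranked 26373 in tumor and 14257 in normal.

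Among the genes of the unfolded protein response, Creb3l1 stood out by the number of its sites. Creb3l1, an ER-bound transcription factor of secretory cells, had 9 YAP summits in tumor 1 and 14 in tumor 2, against 0 in normal 1 and 0 in normal 2. These gave 7 sites of both tumor libraries, 2 of them at a gene end, with no rank better than 5274. At least 4 sites were found at 9 members, 15.5%, against 6.57% of all genes. They were Creb3l1, Eif2ak3, Herpud1, Pdia4, Sec24b, Sec31a, Sec63, Srp9 and Ssr1. With summits of a score of at least 5 only, Sec24b had 1 such site, Sec31a, Sec63 and Srp9 had 2 each, and Ssr1 had 3. Eif2ak3 (PERK), the sensor kinase that slows translation, had 4 YAP summits in each tumor library, against 0 in each normal library. Ern1 (IRE1 alpha), the sensor that splices Xbp1, had 3 in tumor 1 and 5 in tumor 2, against 0 and 0 in normal. Atf6, the sensor that is cleaved at the Golgi, had 3 in each tumor library, against 0 in normal 1 and 1 in normal 2. That normal 2 summit lay 770 bp inside the gene and 10 bp from a tumor 1 summit. Herpud1, a degradation factor of the ER membrane, had 5 and 4 in tumor, against 0 and 0 in normal. Atf4, the transcription factor made under PERK signalling, had summits 147 and 404 bp downstream of its start in tumor 1 and tumor 2, too far apart to be 1 site.

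The COPII coat forms the vesicles that leave the ER. Of the 9 genes that the symbol rule placed with it, 8 had a YAP site of both tumor libraries, against 60.0% of all genes. Of the 7 among these with H3K27ac of both tissues at an end, 6 had a site (85.7%, against 89.7%). Sec31a, the outer coat subunit, had 5 YAP summits in tumor 1 and 4 in tumor 2, against 0 in normal 1 and 0 in normal 2, with a start site at ranks 542 and 658. Sec24b had 4 in each tumor library, and Sec24d 3 in each, against 0 in each normal library; both encode cargo-binding subunits. The start summit of Sec24b ranked 16755 in tumor 1 and 4134 in tumor 2. Sec23a, Sec23b and Sec24a had 1 site each at a gene end. Sec31b, the other Sec31 gene, had weak start summits at ranks 20644 and 19502 that did not pair within 200 bp. The Sec31a promoter is shown because it is the best-ranked of the COPII coat. It lies at chr5:100416185-100416484 on the minus strand, and capitals mark 3 matches to the ETS motif CCGGAAG. YAP summits were at base 92 in tumor 1 and base 112 in tumor 2, and the first match began at base 141.
Sec31a: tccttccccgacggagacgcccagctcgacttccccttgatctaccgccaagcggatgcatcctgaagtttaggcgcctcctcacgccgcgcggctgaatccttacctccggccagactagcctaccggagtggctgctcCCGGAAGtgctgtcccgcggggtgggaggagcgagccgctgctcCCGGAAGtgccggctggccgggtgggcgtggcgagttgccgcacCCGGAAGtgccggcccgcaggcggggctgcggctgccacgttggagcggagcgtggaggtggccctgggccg

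The COPI coat carries proteins back to the ER. YAP sites of both tumor libraries were found at 6 of the 8 genes that the symbol rule placed with it, against 60.0% of all genes. They were found at 6 of the 7 among these with H3K27ac of both tissues at an end (85.7%, against 89.7%). The other 2 of the 8, Copa and Cope, have neighbours close to the start. Cope, the epsilon subunit, had start summits at ranks 805 and 354 in tumor 1 and tumor 2, at -207 and -192 bp, which fall nearer to Ddx49, an RNA helicase gene 296 bp away. Copa, the alpha subunit, lies 260 bp from Ncstn, and its start summits stood at ranks 3857 and 1250. Copz1, a zeta subunit, had 2 YAP summits in each tumor library, against 0 in each normal library, with a start site at ranks 721 and 499. Copz2, the other zeta subunit, had 3 YAP summits in tumor 1 and 5 in tumor 2, against 0 in each normal library. Its start summits stood at ranks 24346 and 24593, and its better site, 885 bp from a gene end, at ranks 4981 and 4123. Copb1 had 2 and 5 summits in tumor, and Copb2 had 2 and 2, against 0 in each normal library. The Cope and Copz1 promoters are shown as the strongest of this coat. Cope is chr8:70302517-70302816 on the plus strand, and capitals mark the matches to TEAD (GGAATG), the cAMP element core (TGACGT, on each strand) and ETS. Copz1 is chr15:103272638-103272937 on the plus strand, with the cAMP element core in capitals.
Cope: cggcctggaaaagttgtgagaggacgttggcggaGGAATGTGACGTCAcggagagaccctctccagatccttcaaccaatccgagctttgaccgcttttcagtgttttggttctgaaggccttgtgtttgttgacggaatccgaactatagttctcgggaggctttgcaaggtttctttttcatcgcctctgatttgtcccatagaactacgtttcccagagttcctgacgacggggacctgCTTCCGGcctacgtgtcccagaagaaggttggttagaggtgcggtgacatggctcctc
Copz1: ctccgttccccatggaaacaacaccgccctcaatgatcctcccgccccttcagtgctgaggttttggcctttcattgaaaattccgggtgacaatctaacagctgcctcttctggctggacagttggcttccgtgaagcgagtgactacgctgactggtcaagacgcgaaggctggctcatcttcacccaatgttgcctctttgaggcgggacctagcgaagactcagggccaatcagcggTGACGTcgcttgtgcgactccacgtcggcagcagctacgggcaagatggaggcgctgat
The YAP summits of Cope were at bases 44 and 59 in tumor 1 and tumor 2, and its TEAD match began at base 35. Those of Copz1 were at bases 83 and 118, and its cAMP element core began at base 242.

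The SNARE genes of the set gave a site that was also seen in normal epithelium. Sec22c had 2 YAP summits in tumor 1 and 3 in tumor 2, against 1 in normal 1 and 1 in normal 2. The site at chromosome 9 position 121697769 lay 7779 bp inside the gene at ranks 66 and 57. The nearest summit of normal 1 was 83 bp away and that of normal 2 was 18 bp away. H3K27ac lay 11 bp from it in tumor, while the nearest H3K27ac summit of normal was 7438 bp away. Sec22a and Sec22b had 1 start site each. Ssrp1, which the symbol rule also took in, encodes a subunit of the FACT histone chaperone and lies outside the secretory pathway. It had 1 YAP summit in each tumor library, against 0 in each normal library, and leaving it out changes a count by 1 gene at most.

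The other motifs were also more frequent in members than in all genes, by a smaller ratio than the ERSE. The CCAAT box was in 27 of 51 (52.9%, against 42.3%), the unfolded protein response element core TGACGTG in 5 (9.8%, against 2.49%), and the shorter cAMP element core TGACGT, which it contains, in 13 (25.5%, against 9.6%). The TEAD motif GGAATG was in 11 (21.6%, against 15.5%), the AP-1 motif TGAGTCA in 4 (7.84%, against 5.4%) and the ETS motif CCGGAAG in 11 (21.6%, against 12.9%). Every ERSE match also holds a CCAAT box. Both strands were searched.

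Away from promoters the member sites were weaker and mostly free of H3K27ac, close to the distal sites of all genes. The 100 sites at members were split evenly, with 50 at a gene end, or 50.0% (Wilson 95% interval 40.4 to 59.6), against 38.2% of 25076 sites at all genes. Of the sites at a gene end, 46 of 50 had H3K27ac of both tissues within 1 kb (92.0%, against 81.8%). Of the 50 distal sites, 12 had it (24.0%, against 22.0%), 7 had H3K27ac of tumor only (14.0%) and 31 had neither (62.0%, against 56.6%). The median rank of gene-end sites was in the top 11.5% of tumor 1 and the top 7.25% of tumor 2, against 20.5% and 14.6% for all genes. That of distal sites was in the top 55.3% and 39.0%, against 50.8% and 37.4%. A distal site was found at 27 members, 46.6%, against 38.2% of all genes, and 2 or more sites at 27 members, 46.6%, against 28.4%. Members are longer than other genes, with a median length of 25010 bp against 17169 bp. The farthest site assigned lay 43781 bp from an end of Sec24d, and the nearest one left out lay 67212 bp from an end of Atf6.

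YAP was scarce at these genes in normal epithelium, as it was in the normal lists as a whole. Normal 1 had 2 summits at 2 members (3.45%, against 2.79% of all genes), and normal 2 had 7 summits at 5 members (8.62%, against 5.98%). Within 1 kb of a start, normal 2 had a summit at 1 of 51 members, Srp9 (1.96%, against 3.85%). Normal 1 had 0 of 51, which by a limit of 3 counts allows a share of up to 5.88%, against 0.0572% of all genes. As a share of all summits in a library, those at members made up 0.306% in tumor 1 (Wilson 95% interval 0.255 to 0.366) and 0.262% in tumor 2 (0.222 to 0.308). The share was 0.121% in normal 1 (0.0332 to 0.44) and 0.327% in normal 2 (0.158 to 0.673). The mean was 0.284% ± 0.0312 in tumor and 0.224% ± 0.146 in normal (SD, n = 2 each), and the values of the groups overlapped. The difference of 0.0597 points gave p = 1.0 in an exact two-sided permutation test over libraries, where the smallest p that 6 arrangements allow is 0.333. With all 4 lists shortened to the shortest length by score, the difference was 0.665 points (exact permutation p = 0.333). Between tumor 2 and normal 1, the libraries whose peak names fit their labels, the difference was 0.141 points, and without normal 1 it was -0.0433 points. The labels do not tell whether libraries of 1 group came from different animals, so this p measures only the spread between samples, which may be technical. The intervals cover counting error only.

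**Figure D4:**
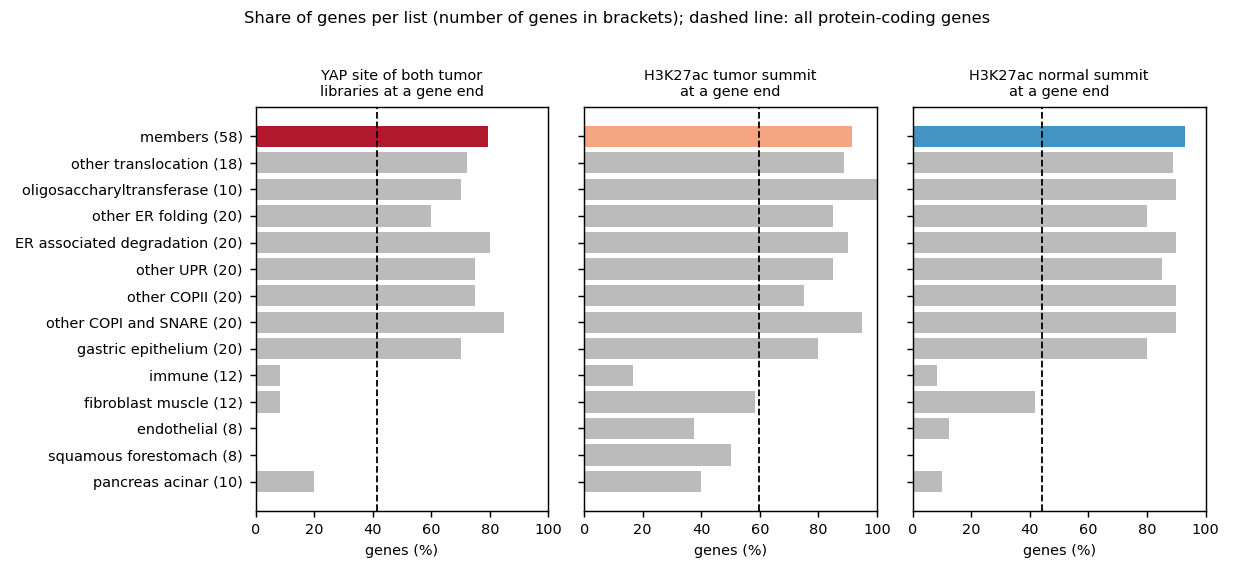
Share of genes with a YAP site of both tumor libraries (left), an H3K27ac summit of tumor (middle) or one of normal (right) within 1 kb of a gene end. Bars give the members and the 13 other gene lists, and the dashed line gives all genes. Members stand at 79.3% for YAP, against 41.4% of all genes. For H3K27ac they stand at 91.4% in tumor, against 59.7%, and at 93.1% in normal, against 44.0%. Once acetylation of both tissues is required, which is not drawn, the YAP shares are 84.9%, against 80.8%.

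H3K27ac was present at nearly all members in both tissues. A summit within 1 kb of a gene end was found for 53 of 58 in tumor (91.4%, against 59.7% of all genes) and 54 of 58 in normal (93.1%, against 44.0%). It was found in both tissues for 53 of 58, against 41.1% of all genes. With 1 library per group there is no replicate check and no test. The full lists placed 140 summits at members in tumor and 82 at members in normal. With the tumor list shortened to its best-scored 22574 summits, the length of the normal list, they had 70 in tumor and 82 in normal, beside 17562 and 20101 over all genes, so the lower sum in tumor is near that of all genes. At that length the median log2 ratio, taken as tumor + 1 over normal + 1, was 0.0 over the members and 0.0 over all genes, and the means were -0.11 and -0.02. At least 1.5-fold more summits in tumor were counted at 3 members (5.17%, against 15.5% of all genes): Pdia5 with 3 in tumor against 1 in normal, Srp68 with 2 against 1, and Ssr3 with 2 against 1. At least 1.5-fold fewer were counted at 11 members (19.0%, against 18.4%), a share near that of all genes. They were Atf4, Calr, Canx, Eif2ak3, Herpud1, Pdia2, Pdia4, Sec24c, Sec61a1, Srp14 and Ssrp1. Among them Eif2ak3 had 1 in tumor against 3 in normal, Sec61a1 1 against 3, and Pdia4 3 against 6. Sec31a had 2 in tumor against 3 in normal. The other 43 had equal counts, of which 3 (Copa, Sec61b and Spcs2) were assigned no summit in either list.

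Most of these counts rest on 1 summit more or less. Summed by role at equal length, where all genes together were also lower in tumor, the unfolded protein response genes had 10 summits in tumor and 14 in normal, the chaperones 9 and 11, the disulfide isomerases 8 and 10, the COPII coat 10 and 12 and the translocon 5 and 7. The signal recognition particle had 9 and 9, the COPI coat 8 and 8 and the TRAP complex 5 and 4. For Creb3l1 and Srp9 the list length mattered. Creb3l1 had 12 summits in tumor and 5 in normal in the full lists, but 5 and 5 at equal length. Srp9 had 8 and 1 in the full lists, but 1 and 1 at equal length. Marker lists of cell types also differed between the tissues. At equal length the gastric epithelium markers summed to 39 summits in tumor against 59 in normal, with at least 1.5-fold more at 1 of 20 genes and fewer at 9 of 20. The sums were 2 and 1 for squamous markers, 4 and 9 for fibroblast and muscle, 5 and 7 for endothelial, 6 and 5 for immune and 2 and 5 for pancreatic acinar markers. In the full lists, where 59.7% of all genes in tumor and 44.0% in normal had a gene-end summit, squamous markers had one at 4 of 8 genes in tumor and 0 of 8 in normal, fibroblast and muscle markers at 7 and 5 of 12, endothelial markers at 3 and 1 of 8, immune markers at 2 and 1 of 12 and pancreatic acinar markers at 4 and 1 of 10. The squamous genes with one in tumor were Krt5, Krt13, Krt14 and Krt6a, the endothelial genes Cldn5, Erg and Kdr, and the immune genes Csf1r and Spi1. None of these had one in normal. The other way round, Ptprc of the immune list and Emcn of the endothelial list had one in normal and none in tumor. Of the fibroblast and muscle list, Acta2 and Col3a1 had one in normal only, and Des, Myh11, Pdgfrb and Tagln in tumor only. Cd3e of T cells, Pecam1 and Cdh5 of endothelium and Trp63 of squamous epithelium had none in either tissue. The part of a change in cell makeup in the member counts was not tested.

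**Figure D5:**
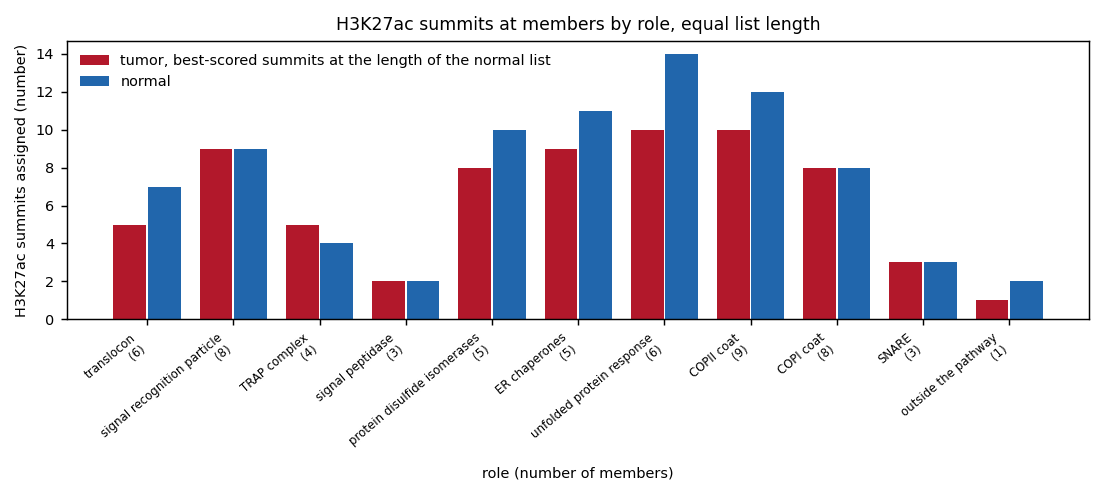
H3K27ac summits per role of the members at equal list length, tumor beside normal (bars start at 0; 1 library per tissue, so no error). Normal has more summits than tumor for the unfolded protein response (10 in tumor, 14 in normal) and the same number for the COPI coat (8 and 8).

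Genes of the pathway outside the symbol rule were read from 7 further lists. A YAP site of both tumor libraries was found at 9 of 10 oligosaccharyltransferase genes, 14 of 18 other translocation genes, 15 of 20 other folding genes, 17 of 20 genes of ER-associated degradation, 17 of 20 other genes of the unfolded protein response, 18 of 20 other COPII genes and 19 of 20 other COPI and SNARE genes. Each share lay above the 60.0% of all genes, like that of the members. Of all genes with H3K27ac of both tissues at an end, 89.7% had a site. With that mark, a site was found at 9 of 9 oligosaccharyltransferase, 13 of 15 translocation and 14 of 16 folding genes. It was found at 16 of 18 degradation and 16 of 17 unfolded protein response genes, and at 14 of 15 COPII genes. Of the COPI and SNARE genes, 17 of 18 had it. These shares lay on both sides of the 89.7%. For H3K27ac at equal length, at least 1.5-fold fewer summits in tumor were counted at 9 of 20 other folding genes, 9 of 20 other unfolded protein response genes and 5 of 10 oligosaccharyltransferase genes, beside 18.4% of all genes. Their sums were 21 in tumor and 36 in normal for folding, 27 and 40 for the unfolded protein response and 14 and 22 for the oligosaccharyltransferase. Xbp1, the transcription factor that Ern1 splices, had 3 H3K27ac summits in tumor and 7 in normal. Txndc5, a disulfide isomerase of secretory cells, had 1 and 4, and Dad1, a subunit of the oligosaccharyltransferase, had 1 and 4. Other COPII genes had 24 in tumor and 39 in normal, with Ergic1, a cargo receptor gene between ER and Golgi, at 2 and 7. Other COPI and SNARE genes ran the other way, with 29 in tumor and 26 in normal, no gene fewer and 4 of 20 with at least 1.5-fold more, Gosr1 among them at 3 and 1. Other translocation genes had 19 and 24, and genes of ER-associated degradation had 22 and 25. With 1 library per tissue none of these counts has a test. Gastric epithelium markers, at 39 in tumor and 59 in normal, differed in the same direction as most of these lists, and their part in the counts was not tested.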

How the data were processed

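Chromatin immunoprecipitation with an H3K27ac antibody (Abcam) or a YAP antibody (CST) was read in 6 libraries as 50 bp pairs, per the labels. Bowtie2 and MACS2, with the mouse build GRCm38 (mm10), are named by the submitters' processing notes. The sources used here give no versions, no thresholds and no control library. Each deposited list holds 1 bp summits called per sample, whose score is the authors' −log10 of either a p-value or a q-value. Depth is unknown.

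Summits of the autosomes, X and Y were assigned to the protein-coding gene with the nearest start or end within 50 kb, using the RefSeq gene table of GRCm38.p6 (21887 genes). A YAP site of both tumor libraries is a uniquely matched pair of summits within 200 bp, placed at the midpoint. Genes were compared for H3K27ac by log2 of summits + 1 at equal list length, with a 1.5-fold threshold. Promoters (250 bases before to 50 after the start) covered 51 of 58 members. Offsets and ranks at member starts were taken at the start nearest to the tumor YAP summits where a member had more than 1. Atf6, Creb3l1, Sec61a1, Spcs3, Srp19, Srp68 and Ssr2 were without an entry. The listed names Srpra and Camlg, were not matched. Shares have Wilson 95% intervals, and YAP groups were compared with an exact permutation test over libraries. Python 3.11.15, numpy 2.4.6, pandas 2.3.3, scipy 1.17.1 and matplotlib 3.10.9 were used, and the scripts were tested on simulated data. Members and lists were chosen with earlier results of these data known. Every member could be named. Of each other list up to 4 genes could be named, first those with the best-ranked tumor YAP site and then those with the largest H3K27ac ratio, and neighbours only where a site could be theirs. Cell type markers named for the check of the tissue fall outside this rule and were chosen after their values were seen. Alternatives varied the matching and assignment distances, the score minimum, the list length, the pseudocount, the merging of summits, the grouping and the libraries included.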

Additional observations from a re-analysis of the deposited data

How the results depend on the processing

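The number of members with a YAP site of both tumor libraries was 49 and lay between 44 (score of at least 10) and 55 (tumor 2 alone) over the alternatives. The share of all genes moved too, from 60.0% to 39.6% at that score and 70.8% with tumor 2 alone. The number with a site at a gene end was 46 and lay between 39 (sites within 100 bp) and 51 (either tumor library alone). Of all genes, 41.4% had a gene-end site in the main setting and 32.0% with sites within 100 bp. With tumor 1 alone it was 47.5% and with tumor 2 alone 52.0%. Members with H3K27ac at a gene end numbered 48 to 54 in tumor and 51 to 54 in normal. Of all genes, the share with it lay between 44.9% and 66.1% in tumor and between 36.5% and 47.4% in normal. The members' median log2 ratio of H3K27ac summits was 0.0 under every alternative run. With full lists the median of all genes was 0.58, and the means were 0.4 for members and 0.68 for all genes. The difference between tumor and normal in the share of YAP summits at members was not stable. Leaving out 1 library gave values from -0.0433 to 0.163 points, and the sign turned without normal 1, where tumor was -0.0433 points against normal; normal 1 has only 2 summits at members. Grouping by the word in the peak names gave 0.0809 points (exact permutation p = 0.667), and shortening all 4 lists to the shortest length gave 0.665 points (exact permutation p = 0.333, the smallest possible). The fit with the replicate number as a block gave 0.0597 points (exact permutation p = 1.0), in a design that cannot reach a call. Same-numbered libraries did not deviate together, with r = -0.00317 across 16206 genes. Only 2.79% of all genes had a summit in normal 1 and 5.98% in normal 2, so this r cannot tell whether the numbers pair the samples. Both YAP libraries numbered 1 carry the word cre in their peak names, and both numbered 2 carry Clu_Yap. For single members, requiring pairs within 100 bp removed the site of Pdia6, Sec23b, Sec24a and Sec61a2. Unknown depth and 1 H3K27ac library per tissue limit every comparison between tissues.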
